A study of Mus musculus with 106 samples.

Results

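The HD effect on gene expression was compared between Gad2+ and vGluT2+ neurons of the mouse cerebrum. From the 106 libraries of the series, the 24 were taken whose labels give the cerebrum as tissue, a RiboTag immunoprecipitate (IP) as preparation, Gad2 or vGluT2 as cell type, and HD or control as genotype. Each library came from another mouse. HD mice were Hdh Q7/Q200, heterozygous for a knock-in allele with a long CAG repeat in *Htt*, and control mice were their Hdh Q7/Q7 littermates. All were adults under a year of age on a 129S4 background, and all carried 1 copy of the RiboTag allele (Rpl22-HA) and 1 copy of a Cre driver, either Gad2-IRES-Cre or vGluT2-IRES-Cre. Cre switches on an HA-tagged ribosomal protein, so that mRNA bound to ribosomes of Cre-expressing cells can be captured from a homogenate with an antibody to HA. A cell that expressed the driver only earlier in life keeps the tagged protein. The cerebrum of a hemisphere, without the olfactory bulb, was used undivided, so that striatum, cortex, thalamus and other regions were in each homogenate. There were 6 mice in each of the 4 groups. Gad2 control IPs held 25849582 to 42528323 estimated counts on mouse genes (median 34373004) and Gad2 HD IPs 24294234 to 45434047 (median 36163942). The vGluT2 control IPs held 29903373 to 68022516 (median 36255033) and the vGluT2 HD IPs 33195170 to 60611448 (median 40790141). The cell types were studied in separate Cre lines with 0 mice in common, so cell type, Cre line and mouse cohort cannot be told apart.

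Gad2 encodes an enzyme that makes GABA, and Gad2-expressing cells of the cerebrum include the projection neurons of the striatum and the inhibitory interneurons. The striatal projection neurons are the cells best known for their loss in Huntington's disease, and their dopamine, adenosine and opioid peptide signalling converges on cAMP and the phosphoprotein DARPP-32. vGluT2, encoded by *Slc17a6*, loads glutamate into synaptic vesicles of thalamic and other subcortical neurons, and many cortical glutamatergic neurons express it during development.

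The labels were checked against marker genes. Summed over 9 markers of the Gad2 line (*Gad1*, *Gad2*, *Slc32a1* and others, with *Gad1* the most abundant in the IPs), levels ran from 3280 to 4150 CPM (counts scaled to library size with TMM factors; median 3870) in Gad2 control IPs and from 88.6 to 190 (median 122) in vGluT2 control IPs, against 1120 to 1220 (median 1140) in 3 total RNA libraries of control homogenates from the Gad2 line. Summed over 10 markers of the vGluT2 line (*Slc17a6*, *Tcf7l2* and others, with *Prkcd* the most abundant), they ran from 373 to 631 (median 532) in vGluT2 control IPs, from 115 to 154 (median 127) in Gad2 control IPs, and from 268 to 314 (median 272) in total RNA of the vGluT2 line. The IPs of each line were thus above the homogenate for their own markers and below it for those of the other line. Cortical glutamatergic markers were above the homogenate in vGluT2 IPs as well. These 10 markers, with *Slc17a7* the most abundant, summed to 2920 to 3380 CPM (median 3070) in vGluT2 control IPs, against 2000 to 2600 (median 2210) in total RNA of that line and 202 to 536 (median 286) in Gad2 control IPs. So the vGluT2 label stands here for a Cre line whose IPs held cortical as well as thalamic markers.

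Summed markers of glia, vessels, choroid plexus and ependyma and of monoaminergic and cholinergic neurons were below the homogenate, but were measured in all IPs. In controls the 10 oligodendrocyte markers summed to a median of 896 CPM in Gad2 IPs and 572 in vGluT2 IPs, against 5940 and 6040 in total RNA of the same lines. The 9 astrocyte markers summed to 911 and 886, against 5660 and 5630. The 8 microglia markers summed to 143 and 44.7, against 353 and 385. The 8 endothelial and mural markers (27.4 and 18.2 against 175 and 179) and the 7 choroid plexus and ependymal markers (46.9 and 51.3 against 713 and 871) were also below total RNA. The 8 monoaminergic and cholinergic markers summed to 49.1 and 51.4 against 79.0 and 83.7. The 8 cerebellar neuron markers summed to 300 and 255 against 149 and 105, most of which was *Calb1* (291 and 224 against 93.8 and 69.9), while 6 of the other 7 had a median below total RNA in Gad2 IPs and 4 of 7 in vGluT2 IPs. In these lists 0 markers were at 0 in all libraries of a group.

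1 library stood far apart from the rest. The HD vGluT2 library labelled re1 was sequenced again in another run with longer reads, and no control library was sequenced with it. It had a count for 12516 of the 14477 genes tested, whereas the other 23 libraries had one for 13805 to 14449. On a principal component analysis of all genes tested, the first component (38.8% of the variance) placed the Gad2 IPs from -57.7 to -40.4 and the other vGluT2 IPs from 31.7 to 54.2, and re1 at 145. On the second (21.5%) it lay at -150, with all other libraries between -34.7 and 41.8. It was kept, and values without it are given below. Within the Gad2 IPs, control replicate 6 (-54.2) and HD replicates 3, 5 and 6 (-57.7, -55.6 and -57.1) lay lowest on the first component. The other Gad2 IPs ran from -48.4 to -40.4. This set holds more HD than control libraries, and a fit without all of them was not run.

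No gene passed the test of the difference between the HD effects of the 2 cell types. By the quasi-likelihood test of edgeR, 0 of 14477 genes (0% called) had an adjusted p-value of 0.05 or less for the difference, which is the log2 fold change HD/control in Gad2 IPs minus that in vGluT2 IPs. At an unadjusted p under 0.05 there were 209 genes by edgeR and 256 by DESeq2, and DESeq2 also called 0. Each count is a smaller share of the 14477 genes than the 0.05 that would fall there if no gene differed. Without re1, edgeR called 0, with 239 at an unadjusted p under 0.05. The data bound single genes loosely, since the median SE of the difference was 0.25 and the 95% interval reached a median of 0.51 to either side. A p that misses the threshold does not show that the cell types respond alike.

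HD effects that passed the test within a cell type were few. In Gad2 IPs 9 genes were called (0.0622% of those tested), all lower in HD, with 1472 at an unadjusted p under 0.05. DESeq2 called 73 there, 14 higher and 59 lower. In vGluT2 IPs 1 gene was called (0.00691%), also lower, with 1061 at that unadjusted p, and DESeq2 called 24, 9 higher and 15 lower. The mean of both HD effects, which has more libraries behind it, called 108 genes (0.746%), 37 higher (0.256%) and 71 lower (0.490%). A call in the mean does not show that both cell types changed. Without re1 the counts were 26 (3 higher), 1 and 130. The balance of directions in the mean was not stable, with 276 higher and 261 lower without vGluT2 control replicate 1 and 168 and 142 without Gad2 HD replicate 1. In bulk samples fewer cells of a type and less RNA per cell cannot be told apart, so a lower level of a gene of one kind of neuron can be either.

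*Ddit4l*, an inhibitor of mTORC1 signalling, was the gene called in both cell types and had the lowest p for the difference. In Gad2 IPs its level ran from 10.2 to 12.9 CPM (median 11.3) in controls and from 2.28 to 4.81 (median 2.7) in HD. In vGluT2 IPs it ran from 23.2 to 30.5 CPM (median 26.9) in controls and from 9.29 to 18.8 (median 13.0) in HD, re1 being the highest of these. HD and control libraries did not overlap in either cell type, and all 6 HD libraries of each lay below every control. *Ddit4l* fell by 1.94 on the log2 scale in Gad2 IPs (SE 0.17, adjusted p = 3.84e-07, edgeR) and by 0.98 in vGluT2 IPs (SE 0.16, adjusted p = 0.0387, edgeR). The difference was -0.96 (SE 0.23, 95% interval -1.43 to -0.48), with an unadjusted p of 0.000366 and an adjusted p of 1 by edgeR over all genes. Without re1 it was -0.85, and without Gad2 HD replicate 4 it was -1.15, with an adjusted p of 0.078 (edgeR; 0.078 to 1 as each library was left out). The call in vGluT2 IPs was held under 18 of 34 alternative settings and lost under 16, among them the fit of vGluT2 IPs alone. On a scale shared with total RNA, the control median of *Ddit4l* was 27.4 CPM in vGluT2 IPs and 11.3 in Gad2 IPs, and 3 control total RNA libraries of the vGluT2 line held 15.5, 16.1 and 17.5.

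**Figure D1:**
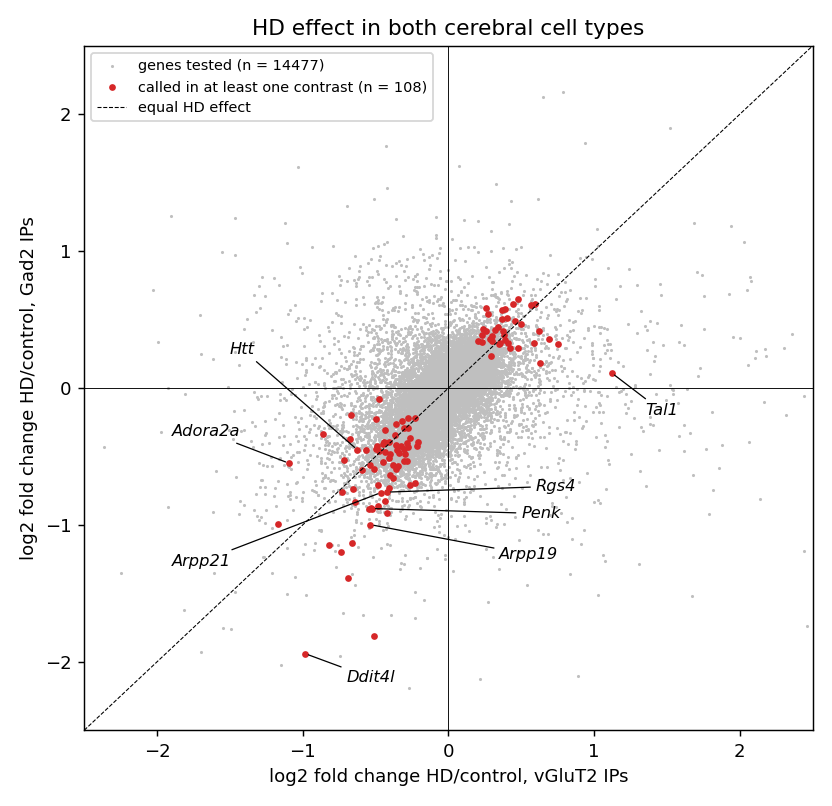
Log2 fold change HD/control in vGluT2 IPs (horizontal) and Gad2 IPs (vertical) for 14477 genes, with the 108 genes called in at least 1 contrast in red and the line of equal effects dashed. All red points lie in the lower left or upper right quadrant, *Ddit4l* lies farthest down at -1.94, and 27 genes lie outside the axes.

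Of the other 8 genes called in Gad2 IPs, 4 were in the list of striatal cAMP and G protein signalling. *Rgs4*, which speeds up the inactivation of G proteins, ran from 256 to 328 CPM (median 298) in Gad2 controls and from 164 to 192 (median 175) in HD, and from 364 to 512 (median 485) in vGluT2 controls and from 302 to 383 (median 347) in HD. The Gad2 groups did not overlap, while 5 of the 6 HD vGluT2 libraries lay below every control. *Rgs4* fell by 0.76 in Gad2 IPs (SE 0.09, adjusted p = 4.65e-05, edgeR), its log2 fold change in vGluT2 IPs was -0.42 (SE 0.09, adjusted p = 0.117, edgeR), and the difference was -0.34 (95% interval -0.59 to -0.08). *Arpp21*, a cAMP-regulated phosphoprotein that is abundant in the striatum, ran from 774 to 876 CPM (median 818) in Gad2 controls and from 402 to 596 (median 458) in HD, and from 503 to 599 (median 520) in vGluT2 controls and from 327 to 424 (median 404) in HD. Neither pair of groups overlapped. *Arpp21* fell by 0.76 in Gad2 IPs (SE 0.09, adjusted p = 7.69e-05, edgeR), with -0.46 in vGluT2 IPs (SE 0.09, adjusted p = 0.0994, edgeR) and a difference of -0.30 (95% interval -0.57 to -0.03). *Arpp19*, whose phosphorylated form inhibits the phosphatase PP2A, ran from 260 to 430 CPM (median 395) in Gad2 controls and from 162 to 222 (median 178) in HD. It ran from 207 to 444 (median 423) in vGluT2 controls and from 183 to 303 (median 278) in HD. The groups were apart in Gad2 IPs and overlapped in vGluT2 IPs, where 1 of 6 HD libraries lay below every control. *Arpp19* fell by 0.998 in Gad2 IPs (SE 0.16, adjusted p = 0.00552, edgeR), with -0.54 in vGluT2 IPs (SE 0.16) and a difference of -0.46 (95% interval -0.93 to 0.01).

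*Penk*, the precursor of the enkephalin peptides of indirect pathway striatal neurons, ran from 1500 to 2090 CPM (median 1930) in Gad2 controls and from 731 to 1380 (median 1030) in HD. In vGluT2 IPs it ran from 99.4 to 161 (median 114) in controls and from 61.2 to 96.2 (median 85.3) in HD. Neither pair of groups overlapped. *Penk* fell by 0.88 in Gad2 IPs (SE 0.14, adjusted p = 0.00552, edgeR), with -0.53 in vGluT2 IPs (SE 0.14, adjusted p = 0.386, edgeR) and a difference of -0.36 (95% interval -0.77 to 0.06; -0.44 without re1). *Pde10a*, the phosphodiesterase that degrades cAMP and cGMP in striatal projection neurons, ran from 218 to 378 CPM (median 300) in Gad2 controls and from 119 to 208 (median 158) in HD. In vGluT2 IPs it ran from 33.5 to 56.3 (median 39.1) in controls and from 26.5 to 35.1 (median 32.1) in HD. Only the Gad2 groups were fully apart. *Pde10a* fell by 0.83 in Gad2 IPs (SE 0.16, adjusted p = 0.0314, edgeR), with -0.44 in vGluT2 IPs and a difference of -0.39 (95% interval -0.85 to 0.07), and its call in Gad2 IPs was lost under 12 of 34 settings. *Camk4*, a calcium/calmodulin-dependent kinase that acts on transcription, fell by 0.91 in Gad2 IPs (SE 0.15, adjusted p = 0.00552, edgeR), from 62.5 to 94.8 CPM (median 76.8) in controls to 28.4 to 56.1 (median 40.7) in HD, with no overlap. Its log2 fold change in vGluT2 IPs was -0.42 (SE 0.15) and the difference was -0.49 (95% interval -0.92 to -0.06). In Gad2 IPs *Camk4* was lowest in HD replicates 3, 5 and 6 (28.4, 29.1 and 39.4 CPM, against 42.0 to 56.1 in the other HD libraries). Among Gad2 controls it was lowest in replicate 6 (62.5). These libraries also lay lowest on the first principal component. The remaining calls in Gad2 IPs, *Chn1*, a regulator of the GTPase Rac, and *Gpr83*, a G protein-coupled receptor, are named after their values had been seen. *Chn1* fell by 0.53 (adjusted p = 0.0148, edgeR) and *Gpr83* by 0.71 (adjusted p = 0.0159, edgeR) in Gad2 IPs, with -0.31 and -0.48 in vGluT2 IPs. The call of *Chn1* in Gad2 IPs was lost under 4 of 34 settings and that of *Gpr83* under 6. With Gad2 IPs fitted alone, a setting tried on single genes after seeing the data, *Ddit4l*, *Rgs4*, *Arpp21* and *Arpp19* kept their calls and *Penk*, *Camk4*, *Pde10a*, *Chn1* and *Gpr83* lost them.

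Over the 9 genes called in Gad2 IPs, the median log2 fold change was -0.83 there and -0.46 in vGluT2 IPs. All 9 were below 0 in both and farther below in Gad2 IPs. These genes were picked on the Gad2 values, which favours that order, and the test of the difference called 0 of them, with 4 of 9 at an unadjusted p under 0.05 by edgeR. Among the 71 genes lower in the mean, medians were -0.52 in Gad2 IPs and -0.44 in vGluT2 IPs, and 48 were farther from 0 in Gad2 IPs. Among the 37 genes higher in the mean, they were 0.39 and 0.38, and 23 were farther from 0 in Gad2 IPs. All 108 had the same sign in both cell types, which picking on the mean also favours. Over all 14477 genes, the medians were 0.01 and -0.02, and 7878 were farther from 0 in Gad2 IPs.

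**Figure D2:**
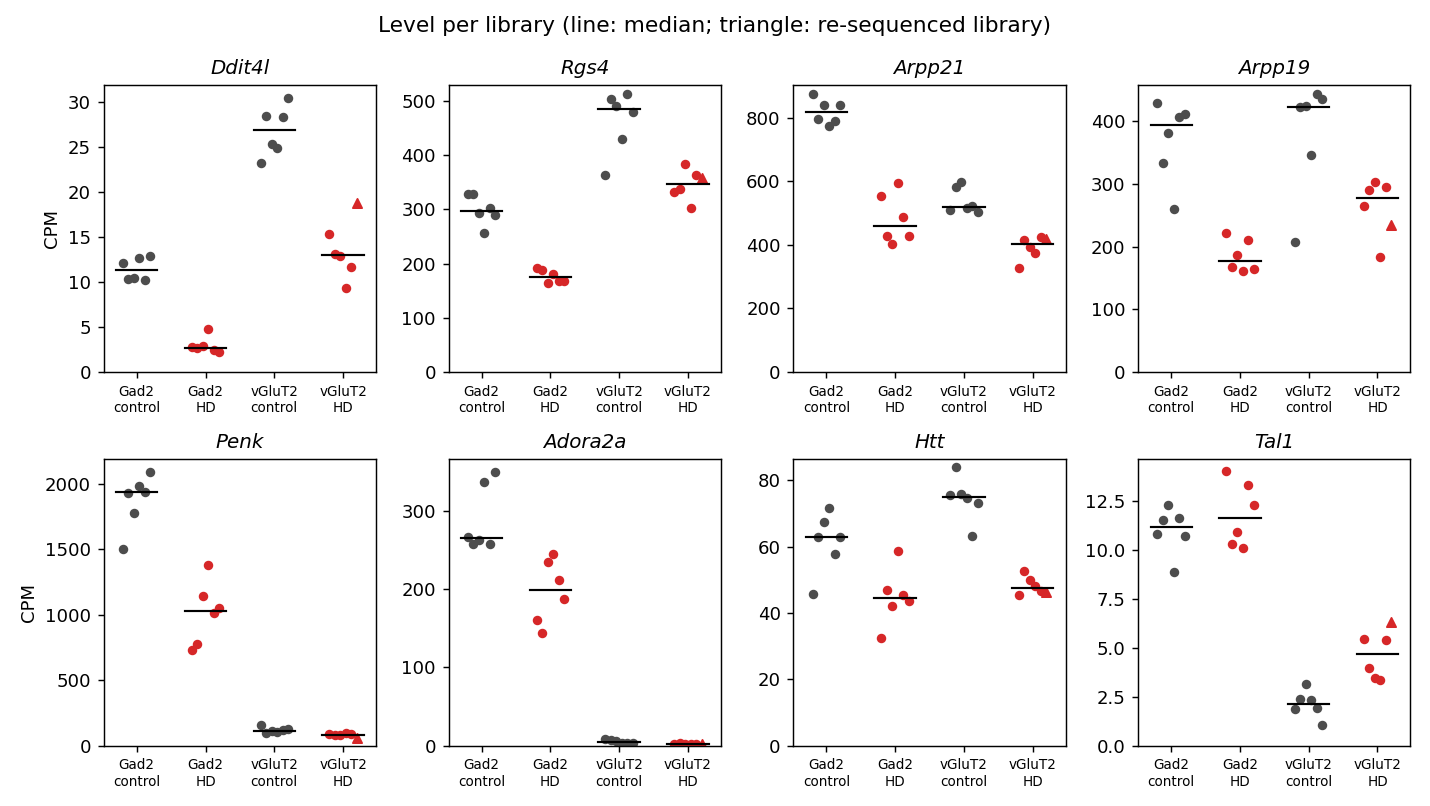
Level of 8 genes (CPM, linear axes from 0) in each of the 24 libraries, by cell type and genotype, with the median as a line and the library re1 as a triangle. *Ddit4l*, *Arpp21* and *Penk* do not overlap between HD and control in either cell type, whereas *Tal1* is apart in vGluT2 IPs only.

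*Htt*, the gene that carries the expanded repeat, ran from 45.8 to 71.7 CPM (median 62.9) in Gad2 controls and from 32.6 to 58.7 (median 44.7) in HD. In vGluT2 IPs it ran from 63.2 to 84.0 (median 75) in controls and from 45.4 to 52.8 (median 47.5) in HD. The groups overlapped in Gad2 IPs and were apart in vGluT2 IPs. The mean log2 fold change was -0.54 (SE 0.08, adjusted p = 0.0014, edgeR), made up of -0.45 in Gad2 IPs and -0.63 in vGluT2 IPs, with a difference of 0.17 (95% interval -0.16 to 0.51; 0.08 without Gad2 HD replicate 4 and 0.25 without Gad2 HD replicate 1).

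Of 11 striatal receptors tested (*Gpr52* did not pass the filter on low counts), 2 fell in the mean, *Drd1* and *Adora2a*, and 0 were called in either cell type or in the difference. Over all genes tested, 0.490% were called lower in the mean, 0.0622% in Gad2 IPs and 0.00691% in vGluT2 IPs. These shares apply to the counts of each later list as well. The medians of the receptors were -0.42 in Gad2 IPs, -0.28 in vGluT2 IPs and -0.22 for the difference (-0.27 to -0.13 as each library was left out). *Drd1*, the dopamine receptor of direct pathway neurons, ran from 123 to 167 CPM (median 141) in Gad2 controls and from 82.4 to 113 (median 92.8) in HD, without overlap, and from 9.94 to 15.8 (median 13.7) in vGluT2 controls and from 6.6 to 15.3 (median 10.4) in HD, with overlap. Its mean was -0.46 (SE 0.10, adjusted p = 0.0329, edgeR; lost under 11 of 33 settings) and its difference -0.22 (95% interval -0.64 to 0.19; -0.10 without re1, the highest HD vGluT2 library). *Adora2a*, the adenosine receptor of indirect pathway neurons, ran from 257 to 349 CPM (median 265) in Gad2 controls and from 144 to 245 (median 199) in HD, and from 3.72 to 8.75 (median 5.11) in vGluT2 controls and from 2.08 to 4.1 (median 2.25) in HD. The Gad2 groups were apart, and 5 of 6 HD vGluT2 libraries lay below every control. Its mean was -0.82 (SE 0.14, adjusted p = 0.00613, edgeR), and it lay farther below 0 in vGluT2 IPs (-1.09) than in Gad2 IPs (-0.55), with the highest difference of the list at 0.55 (95% interval -0.05 to 1.13). *Htr4*, a serotonin receptor coupled to cAMP synthesis, had the lowest, -0.83 (95% interval -1.58 to -0.07, unadjusted p = 0.0337, edgeR). For *Drd2*, the dopamine receptor of indirect pathway neurons, the log2 fold change was -0.33 in Gad2 IPs and -0.03 in vGluT2 IPs, and for *Cnr1*, the cannabinoid receptor, -0.63 and -0.30, neither called.

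Downstream of these receptors, 19 of 19 genes of striatal cAMP and G protein signalling were tested. In Gad2 IPs 4 fell (*Rgs4*, *Arpp21*, *Arpp19* and *Pde10a*), in the mean 5, and in vGluT2 IPs and in the difference 0. Over all genes tested, 0.0622% were called in Gad2 IPs and 0.746% in the mean (0.490% lower). The members were chosen with earlier results of these data known. Medians were -0.39 in Gad2 IPs, -0.21 in vGluT2 IPs and -0.24 for the difference, and 14 of 19 differences were below 0, against a median of 0.01 and 7065 of 14477 over all genes. Leaving out any 1 library, the median difference lay between -0.32 and -0.19. The fifth called in the mean was *Ppp1r1b*, which encodes DARPP-32. It ran from 1920 to 2660 CPM (median 2020) in Gad2 controls and from 1060 to 1990 (median 1450) in HD, and from 131 to 232 (median 158) in vGluT2 controls and from 101 to 126 (median 115) in HD. The groups overlapped in Gad2 IPs and were apart in vGluT2 IPs. The mean was -0.55 (SE 0.11, adjusted p = 0.0118, edgeR; lost with all cerebral IPs in one fit) and the difference -0.02 (95% interval -0.46 to 0.41; -0.145 without vGluT2 control replicate 1 and 0.06 without Gad2 HD replicate 2). *Rasgrp2*, an activator of the GTPase Rap, had the lowest difference of the list, -0.60 (95% interval -1.01 to -0.19, unadjusted p = 0.00556, edgeR), with -0.35 in Gad2 IPs and 0.25 in vGluT2 IPs, and *Itpka*, an inositol trisphosphate kinase, the highest, 0.03 (-0.11 without vGluT2 control replicate 1 and 0.11 without vGluT2 HD replicate 4).

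With all libraries kept, the other striatal lists had smaller medians for the difference. Without re1 the list of cAMP and G protein signalling was still farthest below 0, at -0.294, and channels and calcium handling had -0.172. The order against striatal receptors (-0.249) did not hold, with -0.253 for neuropeptides and -0.250 for transcription factors. From here on, a range in brackets after a list's median difference is its lowest and highest value as each library was left out. Of 4 neuropeptide precursors, *Penk* fell in Gad2 IPs and in the mean, and medians were -0.29, -0.22 and -0.19 (Gad2, vGluT2, difference; range -0.32 to -0.11). *Pdyn*, the dynorphin precursor of direct pathway neurons, had -0.14 in both and a difference of 0.00 (95% interval -0.38 to 0.38; -0.07 to 0.08 as each library was left out). Of 12 transcription factors, 1 fell in the mean, *Foxp1* (mean -0.39, adjusted p = 0.0344, edgeR; lost under 16 of 33 settings), and medians were -0.29, -0.19 and -0.11 (-0.25 to -0.03; -0.25 without re1), from *Meis2* at -0.49 to *Isl1* at 0.34 (0.06 without re1). Of 12 genes of channels and calcium handling, 2 fell in the mean and medians were -0.40, -0.22 and -0.18 (-0.26 to -0.12). These were *Scn4b*, a sodium channel beta subunit (mean -0.46, adjusted p = 0.0344, edgeR; lost under 13 of 33 settings), and *Kcnip2*, a partner of A-type potassium channels (mean -0.39, adjusted p = 0.0329, edgeR; lost under 11 of 33). *Scn4b* had a difference of -0.46 (95% interval -0.89 to -0.03) and *Kcnip2* of -0.06 (95% interval -0.42 to 0.30; 0.00 without re1, -0.14 without Gad2 HD replicate 4 and 0.01 without Gad2 HD replicate 2). In this list *Pcp4*, a calmodulin regulator, had the lowest difference, -0.58 (95% interval -1.07 to -0.08, unadjusted p = 0.0242, edgeR), with -0.57 in Gad2 IPs and 0.00 in vGluT2 IPs, and the potassium channel gene *Kcnh4* the highest, 0.19 (0.02 without re1).

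Several striatal genes were far lower in vGluT2 IPs than in the homogenate. On a scale shared with total RNA, *Adora2a* had a median of 265 CPM in Gad2 control IPs and 5.19 in vGluT2 control IPs, against 79.2, 92.4 and 112 in the 3 control total RNA libraries of the vGluT2 line. *Penk* had 1940 and 116, against 281, 399 and 411. *Ppp1r1b* had 2030 and 160, against 461, 574 and 630. These genes are expressed by Gad2 cells, and how much of their level and fold change in vGluT2 IPs came from mRNA of other cells was not tested. *Rgs4*, by contrast, had 300 CPM in Gad2 control IPs and 492 in vGluT2 control IPs, against 180, 225 and 253 in total RNA, and *Arpp19* had 397 and 431, against 106, 110 and 166. For *Rgs4*, *Arpp19* and *Ddit4l* the vGluT2 IPs were thus above the homogenate.

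The 12 genes with the lowest p for the difference, 0 of them called, fall into those with opposite signs and those with a larger effect on one side. They were picked for their low p among 14477 genes, so their unadjusted p and intervals do not show a difference. *Ddit4l* was described above. *Tal1*, a transcription factor of some GABAergic neurons, ran from 8.87 to 12.3 CPM (median 11.1) in Gad2 controls and from 10.1 to 14 (median 11.6) in HD, and from 1.08 to 3.16 (median 2.13) in vGluT2 controls and from 3.34 to 6.33 (median 4.7) in HD. It overlapped in Gad2 IPs and was apart in vGluT2 IPs. The log2 fold change was 0.11 in Gad2 IPs and 1.12 in vGluT2 IPs (adjusted p = 0.0572, edgeR), and the difference -1.01 (95% interval -1.58 to -0.44, unadjusted p = 0.00121, edgeR). Its mean of 0.62 was called (adjusted p = 0.0344, edgeR), and the call was lost under 14 of 33 settings. *Clspn*, a mediator of the DNA replication checkpoint, ran from 5.13 to 9.75 CPM (median 8.0) in Gad2 controls and from 1.24 to 5.77 (median 2.96) in HD, where 5 of 6 lay below every control, and from 0.395 to 1.42 (median 1.11) in vGluT2 controls and from 0.851 to 1.92 (median 1.18) in HD. Its difference was -1.67 (95% interval -2.60 to -0.74, unadjusted p = 0.00109, edgeR). In Gad2 IPs *Clspn* was lowest in HD replicates 3, 5 and 6 (1.24, 2.19 and 2.84 CPM, against 3.08 to 5.77 in the other HD libraries). The lowest Gad2 control was replicate 6 (5.13). These libraries also lay lowest on the first principal component. *Crh*, the corticotropin-releasing hormone made by a class of interneurons, ran from 12.9 to 16.8 CPM (median 15.0) in Gad2 controls and from 8.69 to 13.1 (median 10.9) in HD, and from 1.59 to 3.01 (median 2.42) in vGluT2 controls and from 1.32 to 6.85 (median 4.04) in HD, with re1 lowest. Its difference was -1.32 (95% interval -2.11 to -0.53, unadjusted p = 0.00214, edgeR), and -1.52 without re1 (unadjusted p = 3.68e-05, adjusted p = 0.533, edgeR).

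*Mafa*, a transcription factor of the Maf family, was apart in Gad2 IPs, from 3.95 to 6.39 CPM (median 4.73) in controls and from 1.95 to 3.53 (median 2.6) in HD, and overlapped in vGluT2 IPs, where it ran from 1.4 to 3.7 (median 1.91) and from 2.13 to 4.19 (median 2.53). The difference was -1.21 (95% interval -1.89 to -0.52). *Kcng1*, a modulatory potassium channel subunit, was also apart in Gad2 IPs, from 20.9 to 28.9 CPM (median 25.5) in controls and from 29.6 to 45.9 (median 40.7) in HD, and overlapped in vGluT2 IPs, from 35.7 to 45.6 (median 39.3) and from 27.7 to 50.5 (median 40.8). Its log2 fold change was 0.63 in Gad2 IPs (adjusted p = 0.0649, edgeR) and 0.02 in vGluT2 IPs, a difference of 0.61 (95% interval 0.25 to 0.98). In the same Gad2 libraries that were lowest for *Clspn*, *Kcng1* was highest. These were control replicate 6 (28.9 CPM) and HD replicates 3, 5 and 6 (42.7, 43.0 and 45.9, against 29.6 to 38.7 in the other HD libraries). *Susd2*, a membrane protein gene, was apart in vGluT2 IPs only, from 20.9 to 26.5 CPM (median 23.6) in controls and from 13.6 to 20.8 (median 17.3) in HD, with a difference of 0.62 (95% interval 0.26 to 0.98). The differences of *Galnt16*, an enzyme of O-glycosylation, *Fcgr2b*, an inhibitory Fc receptor, and *Cnn3*, an actin-binding calponin, were 0.41, 1.34 and -0.47. The largest difference of the 12, that of *Impg1* (-4.20, 95% interval -6.62 to -1.79), rested in part on re1. That library held 2.16 CPM where the HD vGluT2 median was 0.176, and the difference was -2.42 without it (unadjusted p = 0.012, edgeR). In Gad2 IPs *Impg1* had a median of 0.949 CPM in controls and 0.233 in HD, where 5 of 6 lay below every control. *Trp73*, a relative of p53, had -1.65 (95% interval -2.69 to -0.61) at a median of at most 2.72 CPM in any group. *Lamp5*, a neuronal relative of the lysosomal LAMP proteins, had among the lowest p in vGluT2 IPs. It ran from 254 to 322 CPM (median 300) in vGluT2 controls and from 172 to 239 (median 216) in HD, without overlap, and from 203 to 275 (median 240) and from 208 to 253 (median 220) in Gad2 IPs, with overlap. Its log2 fold change was -0.48 in vGluT2 IPs (adjusted p = 0.0739, edgeR) and -0.08 in Gad2 IPs, a difference of 0.40 (95% interval 0.13 to 0.66).

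Genes of synaptic transmission showed no call in the difference. Of 14 GABA-A receptor subunits 0 were called in any contrast, with medians of -0.35 in Gad2 IPs, -0.28 in vGluT2 IPs and -0.09 for the difference (-0.20 to 0.05). *Gabra2* had the lowest difference, -0.70 (95% interval -1.93 to 0.54), and *Gabrb2* the highest, 0.38 (0.045 without Gad2 HD replicate 1). Gad2 control replicate 6 held 4.91 CPM of *Gabrb2*, and Gad2 HD replicates 3, 5 and 6 held 4.25, 2.99 and 3.89. The other Gad2 IPs held 25.3 to 46.6. *Gabra2* was also lowest in these libraries (48.3, 22.3, 25.4 and 23.8 CPM, against 55.9 to 237 in the others). The same libraries lay lowest on the first principal component. For 6 genes of GABA synthesis and uptake the medians were -0.07, -0.15 and 0.06 (-0.08 to 0.165), for 17 ionotropic glutamate receptor subunits -0.17, -0.08 and -0.06 (-0.27 to 0.01), and for 7 metabotropic glutamate receptors -0.33, -0.29 and -0.03 (-0.12 to 0.05), again with 0 calls. The 16 interneuron genes had medians of -0.15, 0.05 and -0.22 (-0.31 to -0.12), with 0 calls and *Crh* lowest, and 14 of 16 differences were below 0. Of 19 immediate early genes, 1 fell in the mean, *Homer1*, a postsynaptic scaffold protein gene. Its mean was -0.72 (adjusted p = 0.015, edgeR) and its difference -0.34 (95% interval -0.92 to 0.24). In Gad2 IPs it was lowest in HD replicates 3, 5 and 6 (33.5, 41.6 and 45.9 CPM), against 62.9 to 80.8 in the other HD libraries. The lowest Gad2 controls were replicates 6 and 4 (79.0 and 79.4). The list's medians were -0.18, -0.15 and 0.06 (-0.14 to 0.24).

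Marker lists of the lines had 0 calls. Medians were -0.02 in Gad2 IPs, -0.28 in vGluT2 IPs and 0.18 for the difference (-0.02 to 0.27; 0.04 without re1) over the 9 Gad2 line markers, -0.20, -0.15 and -0.02 (-0.16 to 0.12) over the 10 vGluT2 line markers, and -0.21, -0.05 and -0.16 (-0.28 to 0.04) over the 10 cortical glutamatergic markers. The 8 cerebellar neuron markers had 0.17, 0.61 and -0.50 for the difference, which ranged from -0.99 to -0.13 as each library was left out. Some were high in few libraries. *Cbln3* had 28.9 and 25.7 CPM in vGluT2 HD replicates 1 and 4, against 1.44 to 3.72 in the other HD libraries and 0.313 to 9.04 in controls. *Car8* had 97.2 in Gad2 control replicate 4 and 140 in Gad2 HD replicate 2, against 3.17 to 57.3 in the other Gad2 IPs.

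Of the housekeeping and stress lists, the 15 stress genes tested held *Ddit4l*, which fell in Gad2 IPs, in vGluT2 IPs and in the mean, while 0 others were called, and their medians were 0.08, 0.05 and -0.06 (-0.11 to -0.01). The 24 chaperones (-0.08, -0.02 and -0.20, range -0.25 to -0.14) and 23 genes of cholesterol synthesis (0.02, -0.05 and 0.04, range -0.02 to 0.11) had 0 calls. So had 81 nuclear genes of oxidative phosphorylation, whose medians were 0.09 in Gad2 IPs and 0.23 in vGluT2 IPs, with 72 of 81 differences below 0 and a median of -0.13 (-0.25 to -0.05). For 78 cytosolic ribosomal proteins the medians were 0.12, 0.10 and -0.01 (-0.18 to 0.09), and for 43 proteasome subunits 0.12, 0.17 and -0.05 (-0.14 to 0.00). The 13 mitochondrially encoded genes had -0.33, -0.73 and 0.47, but the last ranged from -0.19 to 1.05 as each library was left out.

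**Figure D3:**
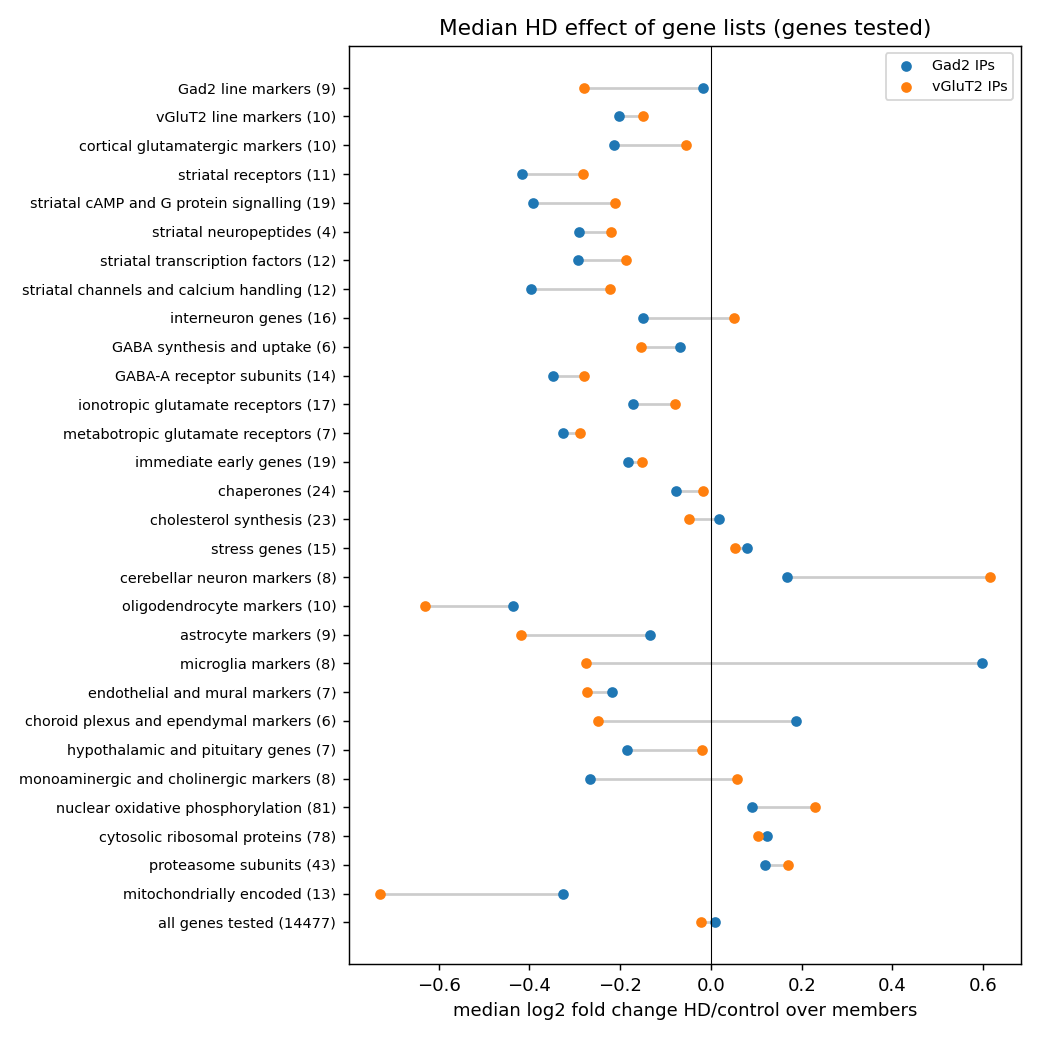
Median log2 fold change HD/control over the tested members of 29 gene lists and over all 14477 genes, in Gad2 IPs (blue) and vGluT2 IPs (orange), with the number of genes in brackets. The striatal lists lie below 0 in both cell types, and the microglia markers lie at 0.60 in Gad2 IPs and -0.27 in vGluT2 IPs.

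Of the 8 markers of microglia, 0 were called in any contrast. All 8 had a difference above 0, with a median of 0.85 (0.60 to 1.05; 0.81 without re1) made up of 0.60 in Gad2 IPs and -0.27 in vGluT2 IPs. Summed, they ran from 101 to 228 CPM (median 143) in Gad2 controls and from 114 to 429 (median 218) in HD, and from 29.2 to 50.6 (median 44.7) in vGluT2 controls and from 37.2 to 51.7 (median 43.2) in HD. The groups overlapped in both cell types, and 0 of the 8 were at 0 in all libraries of a group. In total RNA of the Gad2 line the summed median was 353 CPM in controls (281 to 388) and 363 in HD (296 to 396). In total RNA of the vGluT2 line it was 385 (357 to 423) and 369 (347 to 387), so the homogenates did not show the shift of the Gad2 IPs. *C1qa*, a complement component of microglia, had the highest difference, 1.61 (95% interval 0.01 to 3.20, unadjusted p = 0.0492, edgeR), and *P2ry12*, a purine receptor of microglia, the lowest, 0.10, which was -0.345 without vGluT2 control replicate 3 and 0.60 without re1. The part of microglial mRNA in the HD effects of Gad2 IPs was not tested.

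The remaining lists had 0 calls. For 10 oligodendrocyte markers the medians were -0.44 in Gad2 IPs, -0.63 in vGluT2 IPs and 0.07 for the difference (-0.21 to 0.21), and their summed level had a median of 698 CPM in Gad2 HD IPs and 410 in vGluT2 HD IPs, both under the 896 and 572 of controls. For 9 astrocyte markers they were -0.13, -0.42 and 0.12 (0.01 to 0.23), with summed medians in HD of 932 and 707 CPM. The medians of 7 endothelial and mural markers were -0.22, -0.27 and -0.01 (-0.26 to 0.52; -0.26 without re1), those of 6 choroid plexus and ependymal markers 0.19, -0.25 and 0.44 (0.24 to 0.72; 0.26 without re1), those of 7 hypothalamic and pituitary genes -0.18, -0.02 and -0.08 (-0.49 to 0.665; -0.33 without re1), and those of 8 monoaminergic and cholinergic markers -0.27, 0.06 and -0.41 (-0.60 to -0.20), where all 8 differences were below 0. *Avp*, the vasopressin precursor, had the highest difference of the hypothalamic genes, 1.66 (95% interval -0.11 to 3.43), with 18.7 to 62.4 CPM (median 35.8) in vGluT2 controls and 0.0798 to 15.5 (median 9.27) in HD, which did not overlap.

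Across genes, the HD effects of the 2 cell types, which share no mouse, ran together in part. Over 14477 genes Pearson's r between the log2 fold changes was 0.342 and Spearman's rho 0.503, and 10434 genes (72.1%) had the same sign. Among 11265 genes with a mean count over 100 in each cell type, r was 0.641 and rho 0.655, with 76.3% of the same sign. Without re1, r over all genes was 0.426. Genes are not independent replicates, and these values are descriptions without a test.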

How the data were processed

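Paired, stranded, poly(A)-selected reads had been processed with STAR and Salmon on GRCm38.p6 (from the submitters' processing notes), and the authors deposited estimated counts per gene. Of these, 8.57% were not whole and all were rounded. Spike-ins, at most 1.84% of a library, were kept out of library sizes. GENCODE M21 gave types and symbols for 55141 of 55401 genes.

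The 24 libraries were fitted as 4 group means in edgeR 4.0.16 under R 4.3.3 (TMM, quasi-likelihood test), on genes that code for protein and average over 10 counts. Contrasts gave the HD effect in each cell type, their mean and their difference. Calls needed an adjusted p (Benjamini-Hochberg, over all genes tested) at or below 0.05. The SE was derived from the log2 fold change and its F, and 95% intervals from the test's degrees of freedom. CPM set beside total RNA came from 36 libraries scaled together. The fit was tested on simulated counts, with 100 genes changed 2-fold and 100 changed 4-fold in the HD Gad2 libraries only. For the difference, edgeR called 44% of the first and 78% of the second. Apart from these changes each simulated gene had the same mean share in all libraries, and no library was set apart as re1 is. Libraries of a group differed by more than counting error (chi-square per degree of freedom at least 6.72).

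Named genes were *Htt*, the 12 genes with the lowest p for the difference, the 6 with the lowest p in each other contrast, called list members, the lowest and highest difference of each list, and 12 striatal genes. Members and lists were chosen with earlier results of these data known. Alternatives were DESeq2 1.42.0 or its size factors, other filters on low counts, all mouse genes, *Xist* or the replicate number in the model, all cerebral IPs in one fit, each cell type alone, and each library left out.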

Additional observations from a re-analysis of the deposited data

Results flagged for a closer look

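In groups of 6 libraries, the gap between the most extreme library and its neighbour was divided by the range of the group, and 37 of 368 groups examined held a library beyond the 95% limit for such gaps. Chance alone puts about 1 in 20 groups past that limit, and genes of one library are not independent. The numbers below are these shares of the range.

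Of the genes named for the striatum or for HD effects, *Ddit4l* had such a gap in Gad2 HD replicate 4 (0.767, the highest HD library, still below every control), *Adora2a* in vGluT2 HD replicate 2 (0.652), *Drd2* in Gad2 control replicate 4 (0.633), and *Ppp1r1b* (0.678) and *Itpka* (0.756) in vGluT2 control replicate 1. *Trp73* had one in Gad2 control replicate 5 (0.719) and in Gad2 HD replicate 4 (0.632). In the re-sequenced vGluT2 HD library, *Impg1* (0.895), *Cnn3* (0.702), *Lss* (0.68) and *Car8* (0.693) stood out. *Car8* also did so in Gad2 control replicate 4 (0.635) and in vGluT2 control replicate 5 (0.714), where *Grik4* did too (0.771).

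Gad2 control replicate 1 stood out for *Apoe* (0.776), *Ttr* (0.88), *mt-Atp6* (0.739), *mt-Nd3* (0.705) and the summed choroid plexus and ependymal markers (0.81). Gad2 HD replicate 1 did so for *Apoe* (0.77), *Ttr* (0.68), *mt-Atp6* (0.813), *Nrn1* (0.661) and the same summed markers (0.639). Gad2 HD replicate 2 was apart for *Cbln3* (0.635) and the summed cerebellar neuron markers (0.736). In vGluT2 control replicate 1, besides the genes above, *C1qa* (0.647), *Folr1* (0.661), *Psma8* (0.805), *Rpl4* (0.719) and the summed cerebellar neuron markers (0.69) were apart. The value of *mt-Nd3* was so in vGluT2 control replicate 6 (0.732).

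Among the vGluT2 HD libraries, replicate 2 stood out for *Apoe* (0.872), *mt-Atp6* (0.789), the summed oligodendrocyte markers (0.628) and the summed endothelial and mural markers (0.704), and replicate 1 for the summed cortical glutamatergic markers (0.691).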

How the results depend on the processing

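The difference between cell types called 0 genes under every alternative run, leaving out each library included, and the lowest adjusted p of a setting was between 0.0703 (*Fcgr2b*, edgeR with the replicate block) and 1. Counts of HD effects depended strongly on the setting. In Gad2 IPs (9) DESeq2 called 73, all cerebral IPs in one fit 20, and Gad2 IPs fitted alone 4. All 9 were lower, while 14 of the 73 and 6 of the 20 were higher. In vGluT2 IPs (1) DESeq2 called 24, all mouse genes 6, all cerebral IPs 2 and *Xist* as a covariate 0. In the mean (108) DESeq2 called 356, all cerebral IPs 316, no filter on low counts 68 and *Xist* 48. The causes were not tested.

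Leaving out 1 library gave 6 to 26 calls in Gad2 IPs, 0 to 5 in vGluT2 IPs and 40 to 537 in the mean. In Gad2 IPs it was 14, 15 and 26 without Gad2 HD replicates 1, 2 and 4, and 26 without re1. In the mean it was 537 without vGluT2 control replicate 1, 310 without Gad2 HD replicate 1, 40 and 47 without Gad2 control replicates 3 and 2, 47, 45, 46 and 47 without vGluT2 control replicates 2 to 5, 44, 48 and 43 without Gad2 HD replicates 3, 5 and 6, and 44 and 63 without vGluT2 HD replicates 1 and 4. In vGluT2 IPs the count was 0 without Gad2 control replicates 2 to 6, Gad2 HD replicates 2 and 3, vGluT2 control replicates 2, 4 and 6 or vGluT2 HD replicates 1, 3 and 5, 2 without Gad2 control 1, vGluT2 control 3 or Gad2 HD 1, 3 without vGluT2 control 1 or 5 or vGluT2 HD 4, and 5 without Gad2 HD 4. Without vGluT2 HD replicate 2, and with vGluT2 IPs fitted alone, the 1 call was another gene, and the adjusted p of *Ddit4l* ran from 2.75e-05 to 0.16 over all alternatives of edgeR and DESeq2.

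A block for replicate numbers (edgeR) gave 50 calls in Gad2 IPs (6 higher), 6 in vGluT2 IPs and 382 in the mean. The labels do not say that numbers pair mice, although the mouse names of each Gad2 number are neighbours. Same-number correlations were 0.51, 0.396, -0.298, 0.424, -0.0303 and 0.482 for Gad2 numbers 1 to 6 and ran from -0.0379 to 0.278 in the vGluT2 line, and 4 of 6 Gad2 and 2 of 5 vGluT2 HD libraries correlated best with the control of their own number. Since some were under 0.1, the numbers were not taken as pairs, and pairs in part of the Gad2 line are not excluded.

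Across genes, r was 0.438 with a mean count over 10 in each cell type and 0.641 over 100, and 0.251 to 0.426 as each library was left out (lowest without vGluT2 HD replicate 1, highest without re1). Calls of named genes were kept in 844 tests of an alternative and lost in 123, and 0 changed sign.

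Limits: with 6 mice a group, a difference in HD effect between cell types under about 0.51 on the log2 scale is within the median interval. That interval is for a single gene and is not adjusted for the 14477 genes tested, so a call needed a larger difference. *Ddit4l*, at -0.96, was not called, and in simulated data edgeR missed many genes with a 2-fold difference (44% called). Genes with few counts, *Impg1* and *Trp73* among them, are known less well. The counts of calls are fragile, whereas over the alternatives *Ddit4l* lay between -2.13 and -1.88 in Gad2 IPs and the mean of *Htt* between -0.58 and -0.50.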
